A study of Mus musculus with 6 samples.

Results

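The ♂M-1 line was compared with the ZM-1 line on whole-transcript gene arrays, using 4 of the 6 arrays of a study of mouse embryonic stem (ES) cells. Both lines were described by the submitters as chromosome transfer ES cells, and the study concerned how well the paternal and maternal pronuclei of the zygote support reprogramming. The prefixes ♂M and ZM were not spelled out in the labels. Each line was 1 line with 2 biological repeats, so a difference between the lines and a difference between the kinds of line they stand for cannot be told apart. The third line, ♂M-3, also with 2 repeats, entered the estimate of spread and is given beside the results. All 3 lines were grown alike, on gelatin in medium with leukaemia inhibitory factor (LIF) and a pair of kinase inhibitors, PD0325901 against MEK and CHIR99021 against GSK3β. LIF sustains self-renewal through STAT3, and the inhibitors block differentiation signals and stabilise β-catenin. Genotype, strain and passage number were not given in the sources used here.

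Each probe set had 1 linear intensity per array, and 1 probe set was kept per gene, which gave 19938 genes. Median intensity over all probe sets lay between 67.2 and 71.3 on the 6 arrays, and the lower quartile between 23.8 and 25.1. The background level of the arrays was not used here, so a gene whose lower line averaged below 25.1 is given by its levels and its test, without a fold or a log2 difference. Differences are ♂M-1 minus ZM-1 on the scale of log2(intensity + 1), with a positive value for a gene higher in ♂M-1, and a gene is called where limma's moderated test gave an adjusted p below 0.05. Over all genes, the root mean square difference between repeats was 0.14 on this scale for ♂M-1 and 0.16 for ZM-1, and between arrays of different lines 0.228 to 0.235 in the 4 pairs. What the p-values measure is the spread among these repeats and no other. With 2 arrays a line, the number of arrays sets the precision.

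The ES cell label was borne out by the markers in both lines. Pou5f1, the central pluripotency factor, measured 3683 and 3738 in ♂M-1 and 3872 and 3878 in ZM-1. Nanog, which holds cells in self-renewal, measured 3771 and 3467 against 3394 and 3328, and Zfp42, a marker of the naive state, 283 and 299 against 263 and 280.0. The adjusted p of these 3 genes lay between 0.502 and 0.686. Of 34 measured genes of core and naive pluripotency, 3 were higher in ♂M-1 and 0 lower, against 1.90% higher and 2.53% lower among all genes. Lefty2 and Lefty1, secreted inhibitors of Nodal signalling, were higher by 0.80 and 0.70 log2 units, and Utf1, a chromatin protein of undifferentiated cells, by 0.38. All of these 3 calls depended on single arrays. Lefty2 was lost without the second ♂M-1 array (adjusted p = 0.0553), Lefty1 without that array (0.0972) or the second ZM-1 array, and Utf1 without any 1 of the 6.

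Across all genes, 882 were called between ♂M-1 and ZM-1 (4.42%), of which 378 were higher in ♂M-1 (1.90%) and 504 lower (2.53%). Counts of the 46 gene lists are to be read beside these shares. With an absolute log2 difference of at least 1, 77 genes were called (0.386%), 12 of them higher (0.0602%) and 65 lower (0.326%). The large differences therefore lay mostly on 1 side. Among the 65 lower genes, 28 belonged to the lists of interferon signalling, sensing and effector genes. Of the 77 genes, 74 kept their call with any 1 of the 6 arrays left out. Of the 805 genes called with a difference below 1 log2 unit, 116 did so. Without the second ♂M-1 array 235 genes were called, and without the first 369. The balance of directions also depended on centring: higher genes were 42.9% of the calls on the deposited values and 56.5% after each array was centred on its median.

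**Figure D1:**
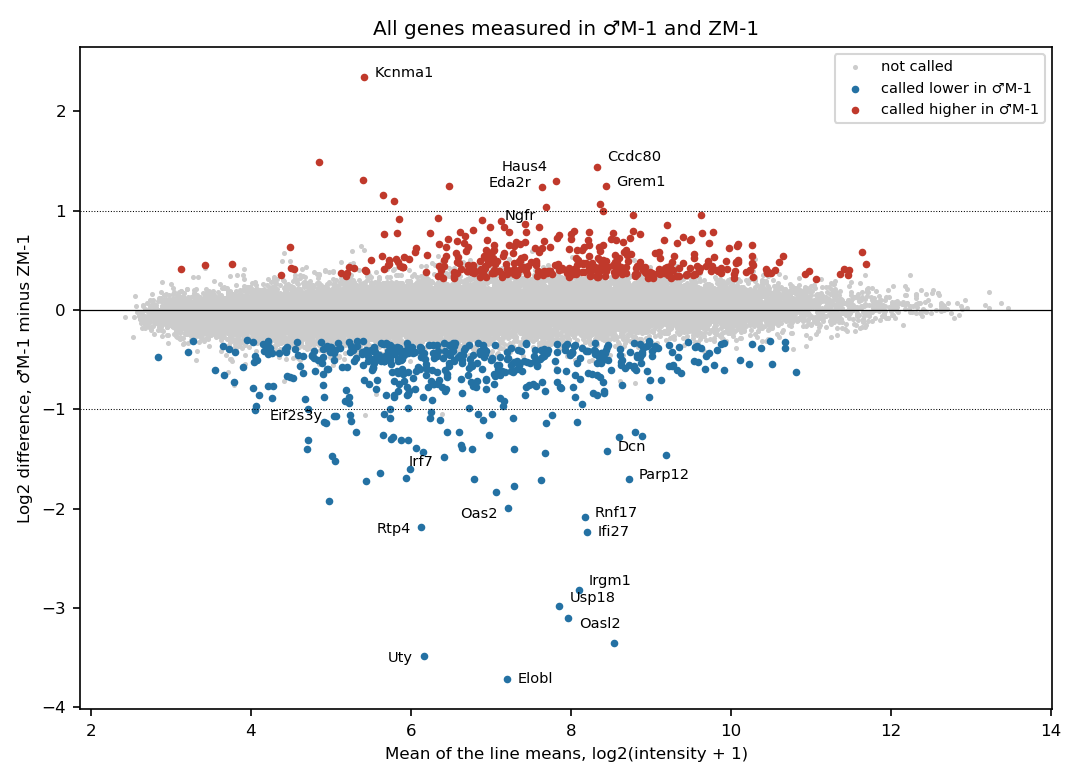
Every gene is plotted by the average of its ♂M-1 and ZM-1 means on the log2(intensity + 1) scale (horizontal axis) and by its log2 difference, ♂M-1 minus ZM-1 (vertical axis), with called genes in colour and dotted lines at 1 and -1. Most points beyond the dotted lines lie below -1. Among the labelled genes Elobl, Uty, Oasl2, Usp18 and Irgm1 are lowest, and Kcnma1 stands alone at the top.

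Interferons are cytokines secreted by cells that sense viral nucleic acid. Type I interferons bind the receptor chains IFNAR1 and IFNAR2, whose kinases JAK1 and TYK2 phosphorylate STAT2. STAT2 and IRF9 are part of the complex ISGF3, which binds the interferon-stimulated response element in promoters of antiviral genes. Undifferentiated ES cells are known to respond to interferon only weakly and to produce little of it.

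The interferon-stimulated genes formed the broadest group that separated the lines. Of 168 measured genes in 9 lists of signalling, sensing and effector genes, limma called 63 lower in ♂M-1 (37.5%) and 2 higher, with a median log2 difference of -0.22 against -0.01 over all genes. The count of lower genes was 44 without the second ♂M-1 array, the smallest of the 6 such counts. These genes were not an independent choice, because earlier results of the same arrays had shown this direction. In bulk RNA, fewer cells that express a gene and less of its RNA per cell cannot be told apart.

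At the top of the pathway the genes of the type I receptor and its kinases were not called. The receptor genes Ifnar1 and Ifnar2 were not called, with Ifnar1 at 325 and 350.2 in ♂M-1 and 354 and 319 in ZM-1, and a log2 difference of 0.01 (95% interval -0.18 to 0.20). Ifnar2 measured 256 and 267 against 318 and 299.9, with a difference of -0.24 (95% interval -0.41 to -0.07, adjusted p = 0.120). Jak1 and Tyk2, the receptor kinases, had differences of -0.03 and 0.13, both without a call. The interval of Ifnar2 was nevertheless wholly negative. With 2 arrays a line, a missing call does not show that the levels were equal.

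Of 21 measured genes of receptors, JAKs, STATs and their inhibitors, 2 were lower in ♂M-1 (9.52%) and 0 higher. Among all genes 2.53% were lower and 1.90% higher. Stat2, the STAT found in ISGF3, measured 275 and 245 in ♂M-1 and 417 and 411 in ZM-1. Its level in ♂M-1 was 1.59-fold below that in ZM-1 (log2 difference -0.67, SE 0.0819, adjusted p = 0.00257). Stat4, which carries interleukin-12 and some interferon signals, measured 179 and 173 against 305 and 278 and was 1.65-fold lower (adjusted p = 0.00143). Both genes kept their call with any 1 array left out. Stat3, the target of the LIF in the medium, measured 1027 and 1016 against 1073 and 1028 (adjusted p = 0.821).

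Among the 8 interferon regulatory factors, 2 were lower and 0 higher. Irf7, the factor that amplifies interferon production and is itself induced by interferon, measured 49.8 and 49.99 in ♂M-1 and 161 and 125 in ZM-1. Its level in ♂M-1 was 2.80-fold below that in ZM-1 (log2 difference -1.49, SE 0.114, adjusted p = 1.84e-04). Irf9, the DNA-binding subunit of ISGF3, measured 209.7 and 211 against 337 and 328, 1.58-fold lower (adjusted p = 0.00446), with adjusted p = 0.0527 without the second ♂M-1 array. Irf3, which is activated by phosphorylation rather than induced, measured 206 and 209.7 against 196 and 187 (adjusted p = 0.446). Irf1 and Irf8 were lower in both ♂M-1 arrays than in both ZM-1 arrays, at 248 and 239 against 289.7 and 286 and at 69.1 and 76.1 against 89.1 and 89.2, but neither was called (adjusted p = 0.113 and 0.0853).

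The interferon genes themselves gave no matching difference. Of 16 measured ligand genes, 0 were lower and 1 higher, and Ifnb1, the gene for interferon β, measured 13.8 and 14.8 against 14.3 and 16.02, below the lower quartile of the arrays. The higher gene was Ifnl2, a type III interferon with a near-identical copy, at 129 and 141 in ♂M-1 and 96.8 and 106 in ZM-1 (adjusted p = 0.0412). That call was lost without any 1 of the 6 arrays, with adjusted p up to 0.227.

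Sensors of foreign nucleic acid were lower in part: of 28 measured sensors and adaptors, 7 were lower in ♂M-1 and 0 higher. Zbp1, a sensor of Z-form nucleic acid that triggers cell death, measured 82.7 and 84.1 in ♂M-1 and 304 and 272 in ZM-1, 3.42-fold lower (log2 difference -1.77, SE 0.0820, adjusted p = 8.67e-06). Ddx60, a helicase linked to RIG-I signalling, measured 15.3 and 14.99 against 64.8 and 55.8 (adjusted p = 1.35e-05). Eif2ak2, the kinase PKR that stops translation upon binding double-stranded RNA, measured 242 and 221 against 397 and 433, 1.79-fold lower (adjusted p = 9.71e-04). These 3 calls were kept with any 1 array left out.

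The cytoplasmic RNA receptors differed less. Ifih1, which encodes MDA5, measured 29.0 and 36.5 in ♂M-1 and 58.6 and 49.0 in ZM-1 (log2 difference -0.70, adjusted p = 0.0179). Ddx58, which encodes RIG-I, measured 907 and 1073 against 1499 and 1388 (log2 difference -0.55, adjusted p = 0.0198). Both calls were lost without the first ♂M-1 array (adjusted p = 0.114 and 0.120) and without the first ZM-1 array. Dhx58, which encodes the regulator LGP2, was also lower, with a log2 difference of -0.49 and a call kept in 2 of the 6 fits with 1 array left out. Mavs, the adaptor of these receptors, measured 412 and 417 against 465 and 413 (adjusted p = 0.653).

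The oligoadenylate synthetases, enzymes that make the 2-5A messenger in response to double-stranded RNA and so activate RNase L, had the highest share of lower genes among the interferon lists. Of 11 measured genes, 7 were lower and 0 higher, with a median log2 difference of -0.72. Oasl2, a synthetase-like protein, measured 85.1 and 84.3 in ♂M-1 and 797 and 672 in ZM-1. It was 8.55-fold lower in ♂M-1 (95% interval of the log2 difference -3.31 to -2.89, adjusted p = 9.48e-07), the largest difference of any interferon-list gene. Oas2 measured 74.4 and 72.5 against 308 and 284, 3.98-fold lower (adjusted p = 4.17e-06), and Oasl1, which restrains translation of Irf7, 122 and 123 against 370.1 and 304, 2.72-fold lower (adjusted p = 1.10e-04). Oas1a measured 165 and 136 against 317 and 308, 2.08-fold lower, and Oas3 48.2 and 43.9 against 79.0 and 73.6, 1.64-fold lower. Oas1b, the gene of flavivirus resistance in mice, measured 20.9 and 16.5 against 60.8 and 49.97 (adjusted p = 6.83e-04). Oas1c, the seventh lower gene, had a log2 difference of -0.64 and lost its call without either ♂M-1 array (highest adjusted p = 0.144). Oas1d, a member of the same tandem cluster, was low in both lines, at 13.5 and 18.2 against 14.5 and 17.8. Members of the Oas1 group are near-identical copies, so their probe sets may share signal.

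In the ISG15 system, which attaches a ubiquitin-like protein to targets, 3 of 8 measured genes were lower and 0 higher. Usp18 removes ISG15 and blocks the interferon receptor as a feedback inhibitor. It measured 77.5 and 85.6 in ♂M-1 and 699.6 and 602 in ZM-1, a fold of 7.89 (log2 difference -2.98, SE 0.104, adjusted p = 1.80e-06). The enzymes of conjugation differed much less: Uba7, the activating enzyme, measured 54.5 and 54.2 against 71.8 and 72.01, and Ube2l6, the conjugating enzyme, 224 and 208 against 313 and 281. Their adjusted p values were 0.0258 and 0.0311, and both calls were lost without either ♂M-1 array or the first ZM-1 array (highest adjusted p 0.146 and 0.190), that of Uba7 also without the second ZM-1 array.

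Antiviral effectors made up the longest of the interferon lists, with 26 of 57 measured genes lower and 1 higher. Ifi27, a mitochondrial and nuclear-envelope protein induced by interferon, measured 130.5 and 139 in ♂M-1 and 687 and 595 in ZM-1, 4.72-fold lower (adjusted p = 7.52e-06). Rtp4, a receptor transporter protein that binds viral RNA, measured 26.5 and 38.1 against 183 and 119.8, 4.54-fold lower with a wide spread between repeats (log2 difference -2.18, SE 0.200, adjusted p = 5.63e-04). Parp12, a mono-ADP-ribosyltransferase, measured 244 and 221 against 801 and 723, 3.26-fold lower (adjusted p = 1.45e-05). Xaf1, an antagonist of the apoptosis inhibitor XIAP, measured 70.03 and 61.8 against 179 and 173, 2.65-fold lower (adjusted p = 4.37e-05). These 4 genes kept their call with any 1 array left out.

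The following effectors were picked out after their values were seen. Bst2, the tetherin that holds budding virus at the membrane, measured 189.8 and 214 in ♂M-1 and 434 and 352 in ZM-1, 1.93-fold lower (adjusted p = 0.00197). Rsad2, the viperin that makes a chain-terminating nucleotide, measured 26.8 and 37.3 against 77.7 and 76.6, 2.40-fold lower (adjusted p = 0.00143). Ifit1, which binds viral RNA caps, measured 21.9 and 28.5 against 54.2 and 66.1, 2.34-fold lower (adjusted p = 0.00143). Mx1, a classic interferon-induced GTPase, stayed below the lower quartile in both lines, at 13.3 and 14.3 against 14.6 and 16.6 (adjusted p = 0.360). The list's higher gene was Ifitm1, a membrane protein that blocks viral entry and is also made by ES cells, at 1323 and 1373 against 860.2 and 868, 1.56-fold higher in ♂M-1 (log2 difference 0.64, SE 0.0735, adjusted p = 0.00181). Its neighbours in function, Ifitm2 and Ifitm3, were not called, at 2561 and 2464 against 2199 and 2237 and at 2754 and 2649 against 2610.4 and 2484.

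Of 13 measured genes of immunity-related GTPases and guanylate-binding proteins, 6 were lower and 1 higher. The lower genes were Irgm1, Gbp3, Gbp4, Gbp7, Gbp9 and Gbp11. Immunity-related GTPases attack the vacuoles of intracellular parasites. Irgm1, the regulator of these GTPases and of autophagy, measured 92.4 and 113 in ♂M-1 and 696 and 755 in ZM-1, 7.04-fold lower (log2 difference -2.82, SE 0.171, adjusted p = 4.58e-05). Gbp4, a guanylate-binding protein, measured 71.6 and 86.7 against 168 and 159, 2.06-fold lower (adjusted p = 6.83e-04), and Gbp7 36.3 and 38.7 against 66.4 and 70.6, 1.80-fold lower. Irgc1, the higher gene, had a log2 difference of 0.37 that was called in 0 of the 6 fits with 1 array left out.

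Of 15 measured TRIM and related restriction factors, 6 were lower and 0 higher. Trim30a, a TRIM protein that dampens NF-κB signalling, measured 27.9 and 25.6 in ♂M-1 and 81.4 and 90.0 in ZM-1, 3.13-fold lower (adjusted p = 6.36e-05). Trim14, a mitochondrial adaptor of antiviral signalling, measured 57.1 and 61.0 against 106 and 93.8, 1.68-fold lower. Fv1, a retroviral capsid restriction gene, measured 97.7 and 94.1 against 138 and 153, 1.51-fold lower, with adjusted p = 0.0692 without the second ♂M-1 array. Trim25, the ubiquitin ligase that activates RIG-I, was not called, at 739 and 643 against 878 and 848 (adjusted p = 0.137).

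In the IFI200 family, nuclear and cytoplasmic DNA-binding proteins, 4 of 9 measured genes were lower and 0 higher. Ifi207 measured 35.1 and 36.3 in ♂M-1 and 75.5 and 78.7 in ZM-1, 2.13-fold lower (adjusted p = 5.79e-04). Ifi205 measured 38.2 and 49.5 against 71.2 and 75.6, 1.67-fold lower (adjusted p = 0.00857). Ifi203 measured 38.7 and 28.7 against 83.2 and 83.6, with adjusted p = 0.0720 without the second ♂M-1 array, and Ifi202b 15.8 and 21.3 against 58.1 and 47.8. The family consists of similar tandem copies, so these probe sets may share signal as well.

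**Figure D2:**
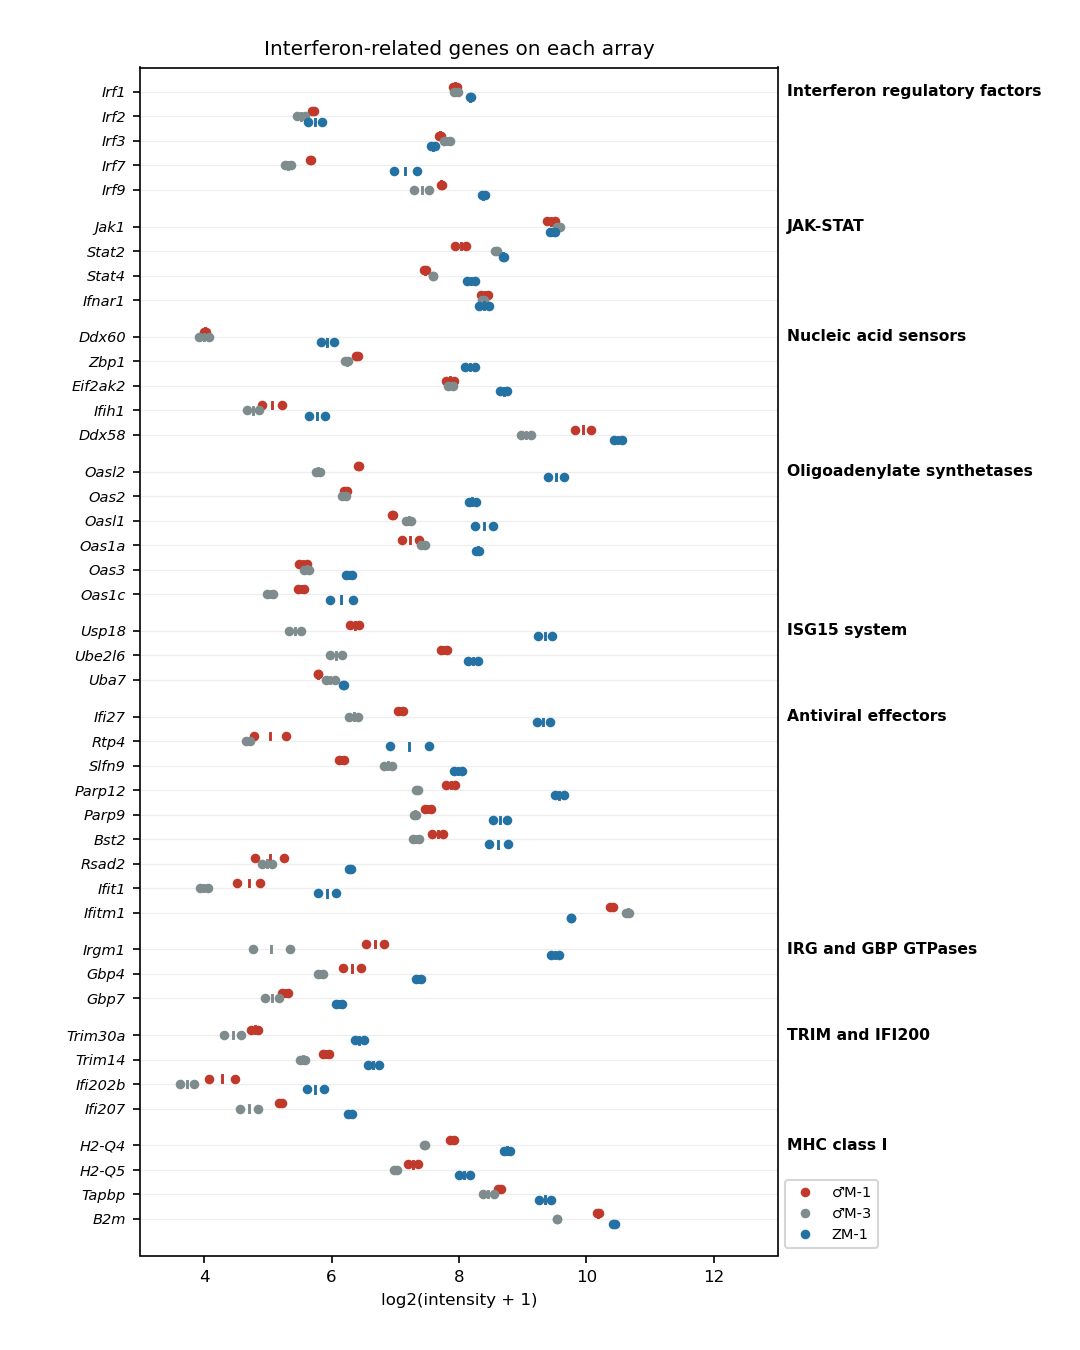
Intensity of 43 interferon-related genes on each array, as log2(intensity + 1), with the 2 arrays of a line as points and their mean as a short bar. For most genes shown the ♂M-1 points lie to the left of the ZM-1 points, while Jak1, Ifnar1, Irf2 and Irf3 lie close together and Ifitm1 runs the other way. Levels of different genes come from different probe sets and are not to be compared.

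Promoter sequences are shown for lower interferon genes because the response element of ISGF3 is a known feature of such promoters. The core of that element, the letters GAAA repeated after any 2 bases, was searched on both strands in the 250 bases before the annotated start of each gene, in RefSeq sequences of GRCm38.p6. Of the 15614 tested genes with a sequence, 531 held a match (3.40%). Matches overlap where 3 repeats follow each other, as in Irgm1 and Oas1a. Each sequence runs 5′ to 3′ on the strand of its gene and ends at the base before the start, and capitals mark the matches, which in Ifit1 lie on the opposite strand and so read TTTC. Irgm1 (chr11:48871421-48871670, minus strand) had matches that began 30 and 24 bases before the start, Oas1a (chr5:120907526-120907775, minus strand) 20 and 14, Ddx60 (chr8:61927837-61928086, plus strand) 53 and 19, Ifit1 (chr19:34640639-34640888, plus strand) 104 and 85 and Oas3 (chr5:120777660-120777909, minus strand) 75. Oasl2 (chr5:114896684-114896933, plus strand), the interferon gene with the largest difference, had no match in this window, which says only that these letters are not there.
Irgm1: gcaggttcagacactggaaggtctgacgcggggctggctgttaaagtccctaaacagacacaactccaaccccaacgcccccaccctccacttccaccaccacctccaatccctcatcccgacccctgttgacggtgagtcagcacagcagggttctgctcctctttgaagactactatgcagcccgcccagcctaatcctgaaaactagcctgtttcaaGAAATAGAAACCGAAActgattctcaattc
Oas1a: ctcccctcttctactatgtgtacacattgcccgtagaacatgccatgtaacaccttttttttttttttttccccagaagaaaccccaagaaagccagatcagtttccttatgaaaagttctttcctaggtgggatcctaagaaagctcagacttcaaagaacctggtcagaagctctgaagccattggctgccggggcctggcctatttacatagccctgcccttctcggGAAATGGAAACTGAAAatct
Ddx60: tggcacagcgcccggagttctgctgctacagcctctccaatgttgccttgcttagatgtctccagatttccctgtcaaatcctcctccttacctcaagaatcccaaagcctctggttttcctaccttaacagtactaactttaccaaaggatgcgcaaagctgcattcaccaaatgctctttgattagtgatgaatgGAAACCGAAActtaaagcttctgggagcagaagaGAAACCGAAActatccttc
Ifit1: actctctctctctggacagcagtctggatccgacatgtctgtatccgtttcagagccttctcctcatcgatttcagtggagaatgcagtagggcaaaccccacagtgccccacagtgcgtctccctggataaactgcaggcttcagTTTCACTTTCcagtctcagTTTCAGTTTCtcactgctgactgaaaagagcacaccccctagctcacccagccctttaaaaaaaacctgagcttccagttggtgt
Oas3: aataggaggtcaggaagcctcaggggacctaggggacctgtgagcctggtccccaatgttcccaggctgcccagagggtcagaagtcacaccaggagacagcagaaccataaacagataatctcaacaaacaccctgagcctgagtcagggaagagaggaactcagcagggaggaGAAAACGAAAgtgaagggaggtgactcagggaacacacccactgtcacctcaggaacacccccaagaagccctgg
Oasl2: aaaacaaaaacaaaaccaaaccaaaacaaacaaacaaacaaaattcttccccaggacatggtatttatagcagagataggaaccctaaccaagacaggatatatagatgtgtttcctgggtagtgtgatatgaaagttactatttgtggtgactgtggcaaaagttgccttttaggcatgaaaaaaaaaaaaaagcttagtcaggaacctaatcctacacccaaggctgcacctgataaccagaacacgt

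Among genes lower in ♂M-1 by at least 1 log2 unit, 11 of 45 with a sequence held the letters (24.4%). For those of these genes that are in none of the interferon lists the count was 1 of 26 (3.85%). Genes lower by less than 1 held them in 32 of 344 cases (9.30%), genes higher by at least 1 in 0 of 10, and genes higher by less in 7 of 293 (2.39%). Within the interferon lists the share was 20 of 47 for lower genes (42.6%) and 18 of 88 for genes without a call (20.5%). The lower MHC class I genes held a match in 0 of 6 cases. Matches are descriptions of the sequence, and binding was not measured.

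MHC class I molecules display peptides to cytotoxic T cells, and ES cells are known to carry few of them. Of 32 measured genes of class I molecules, peptide loading and the immunoproteasome, 8 were lower in ♂M-1 and 0 higher, with a median log2 difference of -0.24. H2-Q4, a non-classical class I heavy chain, measured 232 and 241 in ♂M-1 and 416 and 443 in ZM-1, 1.81-fold lower (adjusted p = 4.42e-04), and its neighbour H2-Q5 162 and 145 against 288 and 254, 1.76-fold lower (adjusted p = 0.00170). Tapbp, the tapasin that loads peptides, measured 403 and 392.2 against 695 and 609, 1.64-fold lower, with adjusted p = 0.0527 without the second ♂M-1 array. Psme2, a subunit of the proteasome activator PA28, measured 755 and 802 against 1215 and 1159.6, 1.52-fold lower, a call lost without either ♂M-1 array or the first ZM-1 array (highest adjusted p = 0.103).

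H2-M2 stayed low in both lines, at 10.198 and 11.3 in ♂M-1 and 21.5 and 23.9 in ZM-1. The ZM-1 repeats of H2-T10 lay far apart, at 38.7 and 78.0 against 22.7 and 27.1 in ♂M-1, and it was called in 2 of the 6 fits with 1 array left out. B2m, the light chain shared by all class I molecules, measured 1171 and 1150.4 against 1361 and 1391, below the ZM-1 arrays without a call (log2 difference -0.25, adjusted p = 0.0977). The count of lower genes fell from 8 to 3 without the second ♂M-1 array.

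A few markers of blood and immune cells were also lower. Of 30 measured markers, 4 were lower in ♂M-1, 0 higher and 26 not called, with a median log2 difference of -0.15, and the calls of Fcer1g and Cd74 were kept with any 1 array left out. Fcer1g and Tyrobp, signalling adaptors of myeloid and natural killer cells, measured 40.5 and 43.5 against 77.4 and 72.3 (adjusted p = 7.10e-04) and 43.9 and 49.7 against 83.0 and 65.2 (adjusted p = 0.0327, up to 0.188 without the first ♂M-1 array). Cd74, the invariant chain of MHC class II, measured 52.9 and 53.3 against 80.2 and 83.7, 1.53-fold lower. Adgre1, the macrophage marker F4/80, measured 19.95 and 24.2 against 41.8 and 34.4, with adjusted p = 0.0739 without the first ♂M-1 array. Without that array the list had 2 lower genes.

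The other defining markers were not called. Ptprc, the pan-leukocyte antigen CD45, measured 30.4 and 30.5 in ♂M-1 and 34.1 and 38.1 in ZM-1, and Csf1r, the receptor that maintains macrophages, 28.1 and 30.7 against 34.2 and 35.4. Cd68, a lysosomal protein of macrophages, measured 382 and 347 against 366 and 338, and Cd3e, a T cell receptor subunit, 143 and 159 against 144 and 145. None of the markers was at 0. The summed intensity of the 30 markers was 3831 to 4068 in ♂M-1 and 4231 to 4539 in ZM-1. The part of such cells in the interferon and MHC differences was not tested.

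Several lower genes lay side by side on their chromosomes. Taking measured genes in chromosomal order, 7 runs of at least 3 neighbours were lower in ♂M-1 and 0 runs were higher. On chromosome 11 the run held Slfn5, Slfn9, Slfn8, Slfn10-ps and Slfn2, growth-regulatory genes of the Schlafen family. Slfn9 measured 68.3 and 71.99 in ♂M-1 and 241 and 263 in ZM-1, 3.55-fold lower (adjusted p = 8.67e-06), and Slfn8 25.8 and 20.2 against 76.8 and 78.1. The next genes of the cluster, Slfn1, Slfn4 and Slfn3, were not called (limma, adjusted p = 0.703, 0.640 and 0.0647). These missing calls do not show that their levels were equal, least of all for Slfn3.

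On chromosome 1 the run was Ifi207, Ifi203, Ifi202b and Ifi205, on chromosome 5 Gbp9, Gbp4 and Gbp11, and on chromosome 17 H2-Q2, H2-Q4 and H2-Q5. On chromosome 16 Parp14, Dtx3l and Parp9, whose products act together in interferon responses and DNA repair, were lower, with log2 differences of -0.81 to -1.36. Parp14 measured 65.5 and 56.0 against 165 and 148, and Parp9 188 and 176 against 429.8 and 371. The remaining runs were Ncf4, Csf2rb2 and Csf2rb on chromosome 15, genes of phagocyte oxidase and of cytokine receptors, and Ppp1r14d, Spint1 and Rhov on chromosome 2. Most runs rested in part on single arrays: of the 6 fits with 1 array left out, the call of Spint1 was kept in 0, that of Ncf4 in 1, H2-Q2 in 2, Slfn2 in 3 and Ifi203 and Gbp9 in 5, and the Parp14 run was kept whole in all 6. Tandem copies with shared sequence can give neighbouring probe sets a common signal.

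**Figure D3:**
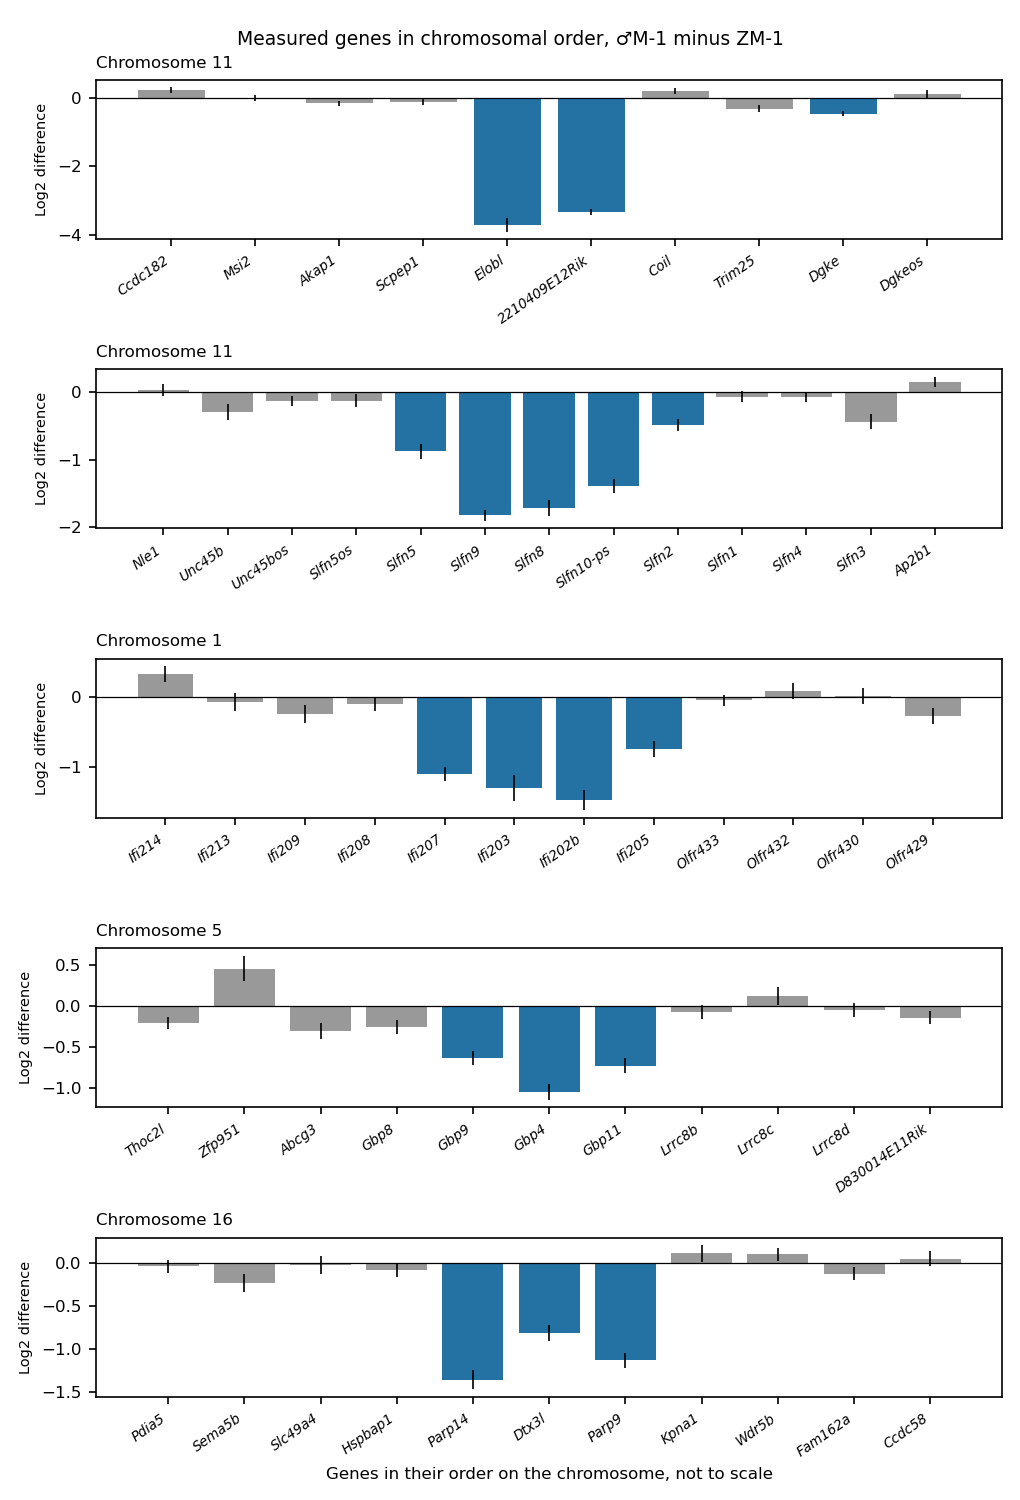
Log2 difference, ♂M-1 minus ZM-1 (vertical axes, which differ in range), of measured genes in their order along the chromosome (horizontal axes, not to scale) for 5 neighbourhoods, with the standard error of the fit as a line and called genes in blue. In the first panel Elobl and 2210409E12Rik stand between Scpep1 and Coil, which were not called, and in the second the called Schlafen genes from Slfn5 to Slfn2 stand between Slfn5os and Slfn1, which were not.

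The largest difference of any gene was at 1 place on chromosome 11. Elobl, a gene named for its likeness to elongin B, measured 50.3 and 31.3 in ♂M-1 and 578 and 493 in ZM-1, 13.14-fold lower (log2 difference -3.72, SE 0.192, adjusted p = 1.64e-05). The measured gene next to it, the clone 2210409E12Rik, chosen after its value was seen, measured 122 and 108 against 1164 and 1201, 10.196-fold lower (adjusted p = 4.81e-07). The genes directly on either side were not called: Scpep1, a serine carboxypeptidase, measured 1760.4 and 1535 against 1815 and 1797, and Coil, the scaffold of Cajal bodies, 291 and 291 against 258 and 247. Past Coil and Trim25, which was not called, Dgke was lower, with a log2 difference of -0.46 (limma, adjusted p = 0.0188). In ♂M-3 Elobl and 2210409E12Rik were low as well, at 69.1 and 83.7 and at 218 and 203.

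Germline genes were lower more often than higher. Of 69 measured genes of germ cells, the piRNA pathway and meiosis, 11 were lower in ♂M-1 (15.9%) and 4 higher (5.80%). Among all genes the shares were 2.53% and 1.90%. Rnf17, a tudor-domain protein of male germ cells, measured 137 and 141 in ♂M-1 and 588 and 597 in ZM-1, 4.24-fold lower (log2 difference -2.08, SE 0.0721, adjusted p = 1.80e-06). Smc1b, a meiotic cohesin, measured 52.7 and 46.4 against 87.6 and 85.9, 1.74-fold lower, and Sycp3, of the synaptonemal complex, 84.9 and 69.0 against 129.7 and 120.0, 1.62-fold lower. The call of Sycp3 was lost without the second ♂M-1 array (adjusted p = 0.0537).

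In the other direction, Zp3, an egg-coat glycoprotein, measured 189 and 189.8 in ♂M-1 and 112 and 92.3 in ZM-1, 1.86-fold higher (adjusted p = 0.00137). Tex15, needed for piRNA-directed silencing in male germ cells, measured 315 and 287 against 178 and 176, 1.69-fold higher (adjusted p = 0.00129). The number of lower germline genes was not stable: it was 3 without the second ♂M-1 array and 6 where only the 4 arrays of both lines were fitted. Elobl, Rnf17 and Smc1b kept their calls with any 1 array left out.

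The gene that stood highest in ♂M-1 was Kcnma1, the pore subunit of the large-conductance calcium-activated potassium channel. It measured 97.3 and 93.5 in ♂M-1 and 16.6 and 19.5 in ZM-1 (adjusted p = 8.48e-06), with 29.0 and 24.5 in ♂M-3. These values come from the brighter of the 2 probe sets of Kcnma1, and the level of the other is not given here. Kcnmb1, the β subunit that tunes this channel in smooth muscle, measured 61.1 and 60.0 against 44.5 and 43.5, 1.37-fold higher, a call lost without any 1 of the ♂M-1 and ZM-1 arrays (highest adjusted p = 0.171). The other 25 of 27 measured potassium channel genes were not called.

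Among the genes higher by at least 1 log2 unit were several of the extracellular matrix. Ccdc80, a matrix protein of adipose and connective tissue, measured 497 and 561 in ♂M-1 and 195 and 192 in ZM-1, 2.72-fold higher (log2 difference 1.44, SE 0.0916, adjusted p = 6.36e-05). Grem1, a secreted antagonist of BMPs, measured 568 and 502 against 220.0 and 228, 2.38-fold higher (adjusted p = 1.34e-04). Efemp1, the matrix protein fibulin-3, measured 116 and 160.5 against 57.2 and 56.5, 2.37-fold higher, and Sulf1, a sulfatase that trims heparan sulfate, 448 and 501 against 243 and 210.0, 2.09-fold higher. Each of these 4 genes kept its call with any 1 array left out.

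The fibroblast and interstitial matrix list as a whole held calls in both directions, with 10 of 50 measured genes higher (20%) and 6 lower (12%). Among all genes the shares were 1.90% and 2.53%. Thbs1, a matrix glycoprotein that activates latent TGF-β, measured 3824 and 3962 in ♂M-1 and 2756 and 2446 in ZM-1, 1.499-fold higher, and Timp2, an inhibitor of matrix metalloproteinases, 424 and 504 against 315 and 251, 1.64-fold higher. Timp2 lost its call without the second ♂M-1 array (adjusted p = 0.125), without which the list had 4 higher genes. On the lower side, Dcn, the small proteoglycan decorin that is also an imprinted gene, measured 237 and 191 against 596 and 546, 2.68-fold lower (log2 difference -1.42, SE 0.118, adjusted p = 3.27e-04).

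Other defining fibroblast markers were not called. Col1a1, the chain of type I collagen, measured 908 and 865 in ♂M-1 and 810.4 and 827 in ZM-1, Thy1, a surface antigen of fibroblasts, 346 and 359 against 355 and 344, and Prrx1, a mesenchymal homeobox factor, 409 and 452 against 455 and 420.2. Twist2, a dermal fibroblast factor, was an exception and was lower, with a log2 difference of -0.40 and a call kept in 3 of the 6 fits with 1 array left out. Lama3, a laminin chain of epithelial basement membranes, was the 1 gene of 30 called among basement membrane genes, at 132 and 136 against 205 and 207 (1.53-fold lower, adjusted p = 0.00219).

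Ligands and antagonists of the TGF-β family were higher where they differed. Of 40 measured genes of the BMP and TGF-β pathway, 5 were higher in ♂M-1 and 0 lower: Grem1, Lefty1, Lefty2, Tgfb2 and Tgfb3. Tgfb2 measured 152 and 159 in ♂M-1 and 115 and 101 in ZM-1, and Tgfb3 156 and 233 against 101 and 112, with folds of 1.44 and 1.78. Tgfb2 lost its call without either ♂M-1 array and Tgfb3 without the second ♂M-1 or the first ZM-1 array, with adjusted p up to 0.105 and 0.0768. Without the second ♂M-1 array 1 gene of the list was called. Nodal, the ligand that the Lefty proteins inhibit, measured 614 and 644 against 722 and 696 without a call (adjusted p = 0.255).

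A spindle gene and a pair of TNF receptor genes were also higher by at least 1 log2 unit. Haus4, a subunit of the augmin complex that nucleates spindle microtubules, measured 349 and 352 in ♂M-1 and 149 and 136 in ZM-1, 2.45-fold higher (adjusted p = 4.37e-05). Eda2r, an X-linked receptor of the TNF receptor family and a p53 target, measured 296 and 314 against 138 and 119, 2.36-fold higher (adjusted p = 1.83e-04). Ngfr, the low-affinity neurotrophin receptor of the same family, measured 305 and 286 against 141 and 147, 2.05-fold higher (adjusted p = 1.84e-04). The 25 other measured members of the TNF receptor family were not called.

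The list of Y-linked genes held 8 measured genes, of which 4 were lower in ♂M-1 and 0 higher. Uty, a Y-linked relative of the demethylase KDM6A, measured 16.6 and 25.1 in ♂M-1, 246 and 229.7 in ZM-1 and 384 and 390.5 in ♂M-3. Eif2s3y, a Y-linked initiation factor of translation, measured 19.9 and 23.5 in ♂M-1, 47.3 and 45.6 in ZM-1 and 396 and 386 in ♂M-3. The ♂M-1 arrays were thus lowest for both genes, and ZM-1 held Uty at a clear level while its Eif2s3y lay far under that of ♂M-3. Against ZM-1 the adjusted p was 8.42e-06 for Uty and 3.51e-04 for Eif2s3y. Kdm5d, a Y-linked demethylase, lay near the lower quartile in all lines, at 19.6 and 25.2, 25.4 and 31.1, and 22.7 and 22.4 in ♂M-1, ZM-1 and ♂M-3. The calls of Zfy1 and Uba1y were lost without either ♂M-1 array, leaving 2 lower genes.

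On the X chromosome, Klhl13, a ubiquitin ligase adaptor, measured 632 and 591 in ♂M-1 and 332 and 298 in ZM-1, 1.94-fold higher (adjusted p = 4.27e-04). Xist, which coats and silences 1 X chromosome in female cells, measured 125 and 133 against 85.8 and 111 and was not called (adjusted p = 0.0977). Rlim, the ubiquitin ligase that activates Xist, measured 934 and 983 against 682 and 728, 1.36-fold higher, with adjusted p = 0.120 without the second ♂M-1 array, and it was lost without the first array of either line too. Of the 28 X-linked genes of ES cells, 2 were higher (7.14%) and 1 lower (3.57%), against 1.90% and 2.53% among all genes.

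Imprinted genes are expressed from 1 parental allele. Of 77 measured, 8 were higher in ♂M-1 (10.4%) and 3 lower (3.90%), against 1.90% and 2.53% among all genes. Their median log2 difference was 0.006, and 3 of these calls were kept with any 1 array left out. Nnat, a paternally expressed proteolipid of the developing brain, measured 69.6 and 93.5 in ♂M-1 and 189 and 201 in ZM-1, 2.40-fold lower (log2 difference -1.26, SE 0.130, adjusted p = 0.00110). Sfmbt2, a paternally expressed Polycomb protein of the placenta, measured 386 and 426 against 262 and 261, 1.55-fold higher (adjusted p = 0.00371). Ddc, an aromatic amino acid decarboxylase imprinted in the heart, measured 60.8 and 53.9 against 98.7 and 83.8, 1.58-fold lower, with adjusted p = 0.0889 without the second ♂M-1 array.

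In the Dlk1-Dio3 domain the noncoding RNAs made from the maternal allele were higher, and the protein-coding genes of the paternal allele were not called. Rian measured 122 and 120.4 in ♂M-1 and 79.6 and 69.2 in ZM-1, 1.62-fold higher, and Meg3 1261 and 1399 against 1043 and 994, 1.30-fold higher. Dlk1, a growth-regulating ligand, measured 190.3 and 239 against 243 and 259.9, and Rtl1, a retrotransposon-derived placental gene, 51.2 and 63.5 against 56.4 and 59.0. The call of Rian was lost without either ♂M-1 array (highest adjusted p = 0.0617) and that of Meg3 without any 1 of the 6 arrays (highest adjusted p = 0.214).

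The remaining higher imprinted genes were Igf2, Phlda2, Mest, Peg10 and Peg3. Igf2, a fetal growth factor, measured 933 and 1056 in ♂M-1 and 702 and 712 in ZM-1, and Peg10, needed for placental development, 1752 and 1932 against 1358 and 1275, with folds of 1.403 and 1.398. Both lost their call without the second ♂M-1 array (adjusted p = 0.120 and 0.127), Igf2 also without the first ZM-1 array and Peg10 without the second. Without that array 1 imprinted gene was called higher.

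**Figure D4:**
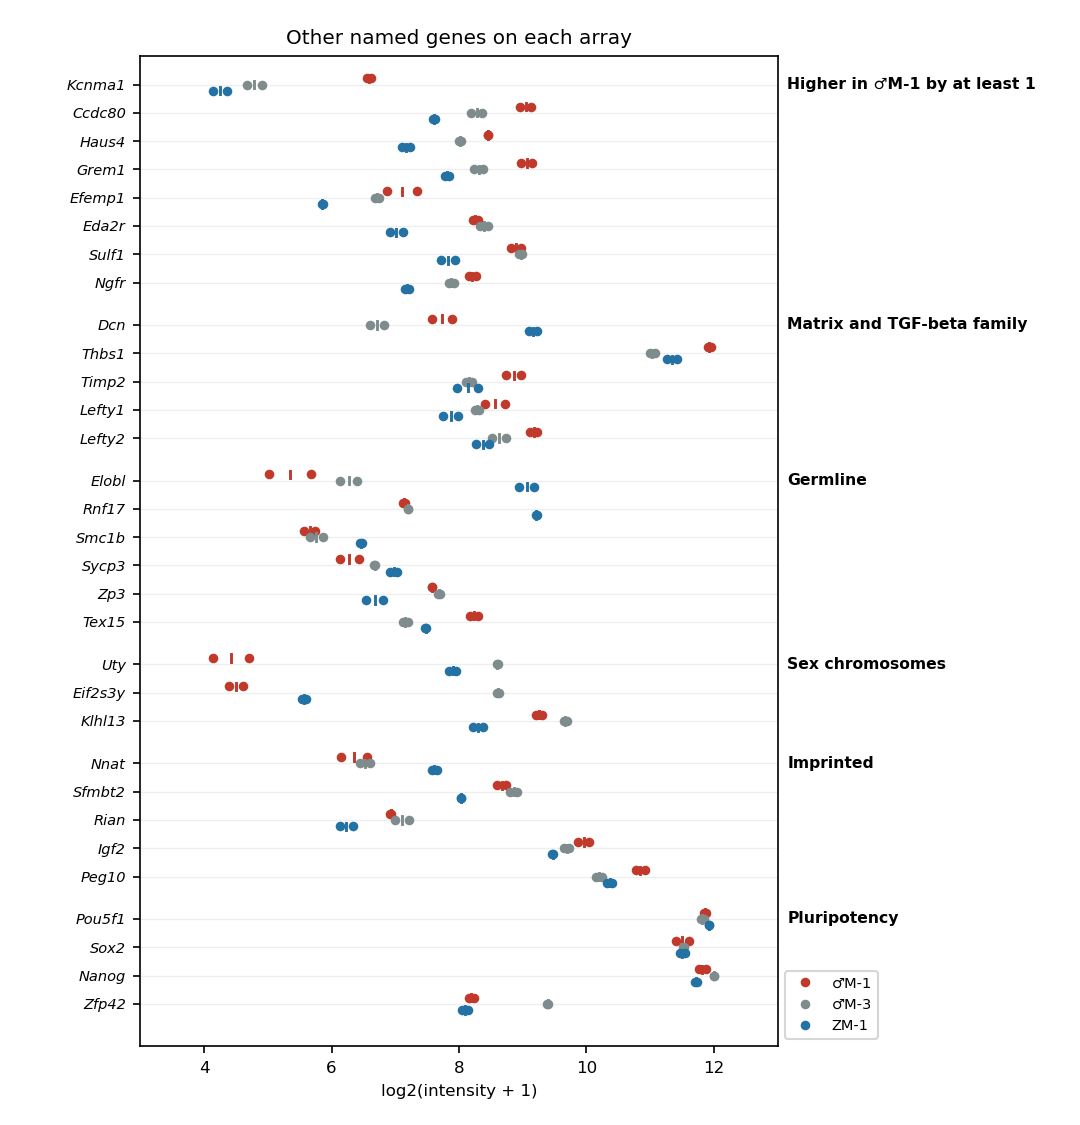
Intensity of 31 further named genes on each array, as log2(intensity + 1), with the 2 arrays of a line as points and their mean as a short bar. Kcnma1 is high in ♂M-1 alone, Elobl and Rnf17 are high in ZM-1 alone, Uty is lowest in ♂M-1, and the pluripotency genes Pou5f1 and Sox2 nearly coincide in all lines.

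Lists of other lineages and pathways held few called genes. Of 12 genes of the 2-cell-like state limma called 0 (6 at an unadjusted p below 0.05), and of 27 genes of primitive endoderm 1 was, namely Srgn, a proteoglycan of secretory granules, with a log2 difference of -0.71 and a call kept in 3 of the 6 fits with 1 array left out. Tfap2c, a transcription factor of trophectoderm and germ cells, measured 318 and 347 in ♂M-1 and 214 and 177 in ZM-1, 1.70-fold higher, with adjusted p = 0.0550 without the second ♂M-1 array. Defining markers of other lineages were not called, among them Cdx2 of trophectoderm at 42.6 and 45.8 against 43.5 and 50.3, Gata4 of primitive endoderm at 96.2 and 86.1 against 87.6 and 91.0, and Pax6 of neural cells at 31.8 and 35.2 against 34.9 and 32.1. Neurod1, a neuronal differentiation factor, was lower, at 41.1 and 49.0 against 75.8 and 88.6 (1.81-fold, adjusted p = 0.00326).

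Dnmt3a, a de novo DNA methyltransferase, measured 282 and 295 in ♂M-1 and 406 and 407 in ZM-1, 1.41-fold lower, a call lost without either ♂M-1 array (highest adjusted p = 0.0630). Ier3, an immediate-early gene among the targets of both ERK and LIF, measured 159 and 164 against 89.2 and 82.2, 1.87-fold higher (adjusted p = 6.53e-04), and it was the 1 called gene of 22 ERK targets. Bcl3, a STAT3-induced cofactor of NF-κB, measured 527 and 480.5 against 354 and 333, 1.46-fold higher, with adjusted p = 0.0732 without the first ♂M-1 array. By limma, 0 of 38 genes of the respiratory chain and ATP synthase were called, 0 of 26 of cholesterol and fatty acid synthesis and 0 of 10 reference genes, where 7, 7 and 1 had an unadjusted p below 0.05.

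**Figure D5:**
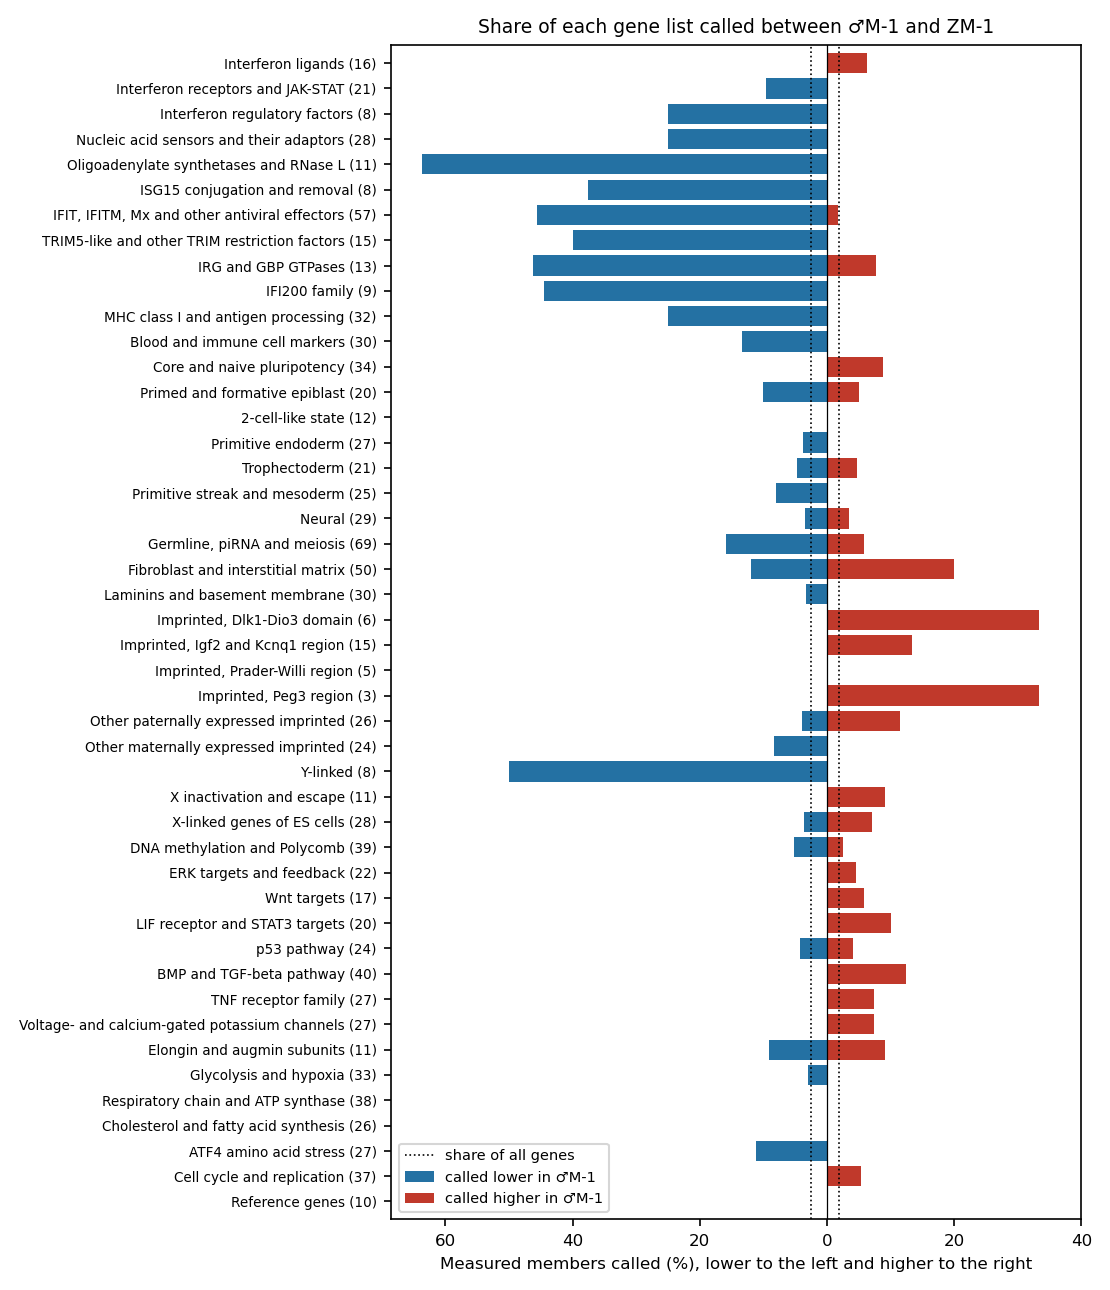
Share of the measured members of each gene list called lower in ♂M-1 (bars to the left) or higher (bars to the right), in percent, with the number of measured members in brackets and dotted lines at the shares among all genes, 2.53% and 1.90%. The longest bars to the left belong to oligoadenylate synthetases, Y-linked genes and the other interferon effector lists, and lists with few members give long bars from 1 or 2 genes.

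The ♂M-3 line was measured beside both lines, and comparisons with it share arrays with the one above. Against ♂M-3, 1303 genes were called in ♂M-1 (6.54%), 642 higher (3.22%) and 661 lower (3.32%). Irgm1 measured 26.1 and 39.7 in ♂M-3, below ♂M-1 by a log2 difference of 1.63 (adjusted p = 9.33e-04). Usp18 measured 39.3 and 45.1 and Oasl2 52.99 and 55.6, with ♂M-1 higher by 0.94 and 0.63 log2 units (adjusted p = 0.00120 and 0.00511). For Oas2, Zbp1 and Eif2ak2 the 2 ♂M lines were not called apart, with ♂M-3 at 70.7 and 74.0, at 72.9 and 75.8 and at 227 and 239. Slfn9 ran the other way, at 122 and 112 in ♂M-3, above ♂M-1 and below ZM-1. In ♂M-3 the fibroblast genes Col1a1, at 587 and 512, and Prrx1, at 258 and 273, lay below both other lines.

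Probe sets without a single gene symbol were counted in a fit over all 35556 probe sets. Of 1621 with several symbols, 1 was higher and 16 lower, 9 of them lower by at least 1 log2 unit. Of 12146 that the probe table did not name, 19 were higher and 58 lower. In that fit 181 of the 21789 probe sets with 1 symbol were called, 48 higher and 133 lower, against 882 genes in the main fit. By at least 1 log2 unit, 10 were higher and 60 lower, against 12 and 65 genes. Most calls of smaller size were therefore lost. That fit spread the adjustment over more probe sets and estimated the variance from all of them, and the cause of the loss was not tested.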

How the data were processed

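RNA of 3 ES cell lines, 2 arrays each, was measured on whole-transcript gene arrays. The authors deposited 1 table of linear intensities for 35556 probe sets. GCOS 1.4 is named in the submitters' processing notes, and the background correction and normalization were not given in the sources used here. Both repeats of each line were called biological in the labels.

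From the deposited intensities, log2(intensity + 1) was computed, with no filter and no further normalization. The probe table gave 1 symbol for 21789 probe sets, several for 1621 and none for 12146. Each of 19938 genes was represented by its brightest probe set, judged by the mean of all 6 arrays, 999 of them having several. One mean per line was fitted with limma 3.58.1 in R 4.3.3 (lmFit, eBayes), and p-values were Benjamini-Hochberg adjusted over all genes, with a threshold of 0.05. The ♂M-3 arrays were included because they share in the estimate of spread. The 95% intervals come from the same fit. The procedure was tested on simulated data.

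Genes were named by a rule: up to 15 per direction with a difference of at least 1 log2 unit in non-overlapping arrays and the higher line above the median gene, up to 6 called members per list, and defining markers. Genes named otherwise are identified as picked after their values were seen or are neighbours, comparison genes or further list members. The comparison, the 46 gene lists and the rule were chosen with earlier results of these data known. Array numbers did not pair the lines: the correlation of same-numbered deviations was 0.07 between ♂M-1 and ZM-1, -0.03 between the ♂M lines and -0.10 between ♂M-3 and ZM-1. Alternatives covered the pseudocount, centring, quantile normalization, filters on low intensity, the arrays fitted, the probe set rule, the variance prior, a replicate block and each array left out.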

Additional observations from a re-analysis of the deposited data

How the results depend on the processing

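Of 2454 values of named genes under the alternatives, 0 reversed direction, 2231 kept their side of the threshold, 207 lost their call and 16 gained one. In the fit over all 35556 probe sets, 181 probe sets with 1 symbol were called, against 882 genes in the main fit. The 882 calls became 1635 with an intensity-trended prior variance. Of these calls 891 were higher genes (main value 378), against 580 with a pseudocount of 16, 801 after a filter at the 50th percentile of intensity and 239 when only the 4 compared arrays were fitted. Genes past a log2 difference of 1 (main value 77) numbered 49 with a pseudocount of 16 and 35 after the 50th percentile filter. That filter left 84 of the 168 interferon genes, 6 of the 30 blood markers, 2 of the 8 Y-linked genes and 49 of the 77 imprinted genes. Among those left, 33 interferon genes were lower (main value 63 of 168), as were 1 blood marker and 1 Y-linked gene. Higher imprinted genes rose to 13, as they did with the trended prior (13). Higher BMP and TGF-β genes numbered 8 with the trended prior. Lower germline genes numbered 6 with 4 arrays and 7 with a replicate block. The causes of these changes were not tested.

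With each array left out in turn, called genes ranged from 235 to 633, higher genes from 69 to 286, lower genes from 166 to 402 and genes past a log2 difference of 1 from 76 to 88. Lower interferon genes ranged from 44 to 63, lower MHC genes from 3 to 7, lower blood markers from 2 to 5, lower germline genes from 3 to 10 and higher ones from 2 to 4. Higher fibroblast genes ranged from 4 to 10 and lower ones from 1 to 5, higher BMP and TGF-β genes from 1 to 5, higher imprinted genes from 1 to 6 and lower Y-linked genes from 2 to 4. Without 1 array a line had 1 sample, which was assumed to vary like the others. The 2 fits without a ♂M-3 array gave the same counts as the fit of the 4 compared arrays. Those 2 of the 6 fits therefore amount to 1. The replicate block called 686 genes, 282 higher and 404 lower, although the numbers did not pair the arrays. Centring each array on its median moved the median of all genes by 0.03 and gave 532 higher and 409 lower calls. Signal over background was not known, which limits statements on genes of low intensity.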

Other observations

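The lists below were drawn up after the values were seen, and their counts are descriptions. Among all genes 1.90% were called higher and 2.53% lower. A list chosen this way can exceed these shares by the choice alone, so no enrichment can be read from its counts. Of 14 measured genes of smooth muscle, 6 were higher in ♂M-1 and 1 lower, and 1 of the 6 kept its call with any 1 array left out. That gene was Myl9, the regulatory light chain of smooth muscle myosin, which measured 932 and 1301 in ♂M-1 and 579.8 and 558 in ZM-1, 1.93-fold higher (limma, adjusted p = 0.00668). Acta2, smooth muscle actin, measured 3606 and 4133 against 2819.5 and 2795, a call kept in 3 of the 6 fits with 1 array left out (highest adjusted p = 0.142). The summed intensity of the 14 genes was 10813 to 12692 in ♂M-1 and 8919 to 8923 in ZM-1. Of 26 measured genes of the striated muscle sarcomere, 11 were lower, 5 of them with any 1 array left out, and 1 was higher. Myl1, a light chain of fast skeletal myosin, measured 277 and 333 against 688 and 780.4, 2.41-fold lower (adjusted p = 3.51e-04), Actc1, cardiac actin, 243 and 348 against 628 and 744, 2.35-fold lower (adjusted p = 0.00285), and Myh3, embryonic myosin, 74.3 and 87.1 against 167 and 183, 2.16-fold lower. Mylpf, the regulatory light chain of fast muscle, ran the other way, at 361 and 331 against 228 and 226, 1.52-fold higher. The sums were 3373 to 3590 in ♂M-1 and 4760 to 5331 in ZM-1.

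Some genes of myeloid cells and inflammation were lower besides the blood markers above. Of 30 measured, 17 were lower in ♂M-1, 11 of them with any 1 array left out, and 0 higher. Gpnmb, a glycoprotein of macrophages and pigment cells, measured 92.7 and 127 in ♂M-1 and 346 and 369.9 in ZM-1, 3.27-fold lower (limma, adjusted p = 1.84e-04), and C3ar1, a complement receptor, 29.6 and 36.9 against 117 and 102, 3.24-fold lower. Ccl3, a chemokine, measured 52.3 and 58.1 against 129 and 111, 2.15-fold lower, and Acod1, which makes itaconate, 49.4 and 51.9 against 97.9 and 121, 2.13-fold lower. Nos2, the inducible nitric oxide synthase, measured 97.8 and 80.1 against 208 and 164, 2.07-fold lower. The summed intensity of the 30 genes was 1013 to 1063 in ♂M-1, 1863 to 1879 in ZM-1 and 955 to 971 in ♂M-3. The part of myeloid cells in these differences was not tested.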
